A study of Mus musculus with 6 samples.

Results

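The 10 genes described here encode the calcium pumps of the sarcoplasmic reticulum (SR) of muscle, the micropeptides that restrain them and the proteins that hold calcium in the SR or the cytosol. They are Atp2a1 and Atp2a2 (pumps), Mrln, Sln and Pln (micropeptides), Casq1, Casq2, Srl and Hrc (SR proteins) and Pvalb (a cytosolic buffer). All 10 were found among the 55401 gene identifiers counted, and all 10 were among the 17222 genes that passed a filter on low counts and were tested. Mrln was included because its difference between the groups had been noticed in these data, so its values are given as a description with no test. The others were included for their function, though with earlier results of these data known.

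RNA-seq was performed on tibialis anterior (TA) muscle, a mostly fast-fibre muscle of the lower leg, from C57BL/6 mice of genotype HSA-MCM-Bmal1-/-, in which tamoxifen given at 2 mg per day for 5 days switches on a Cre driven by a skeletal muscle actin promoter that deletes the clock gene Bmal1. Mice were kept to 12 to 16 weeks of age before treatment, the TA was injected 4 weeks after recombination with adeno-associated virus (AAV) carrying GFP (AAV-GFP, n = 3) or mouse Rbm20 with an HA tag under the CMV promoter (AAV-RBM20, n = 3), and muscle was collected 4 weeks later. All 6 samples carried this knockout, so the comparison was RBM20, a splicing regulator of titin, against GFP within the knockout, with no sample of intact Bmal1 analysed here. Per the study's methods the injected dose of the RBM20 vector exceeded that of the GFP vector, and dose and transgene cannot be told apart.

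Muscle relaxes when SERCA pumps return calcium from the cytosol to the SR. SERCA1, from Atp2a1, is the pump of fast fibres and SERCA2, from Atp2a2, that of slow fibres and heart. Myoregulin (Mrln), sarcolipin (Sln) and phospholamban (Pln) are short, single-pass membrane proteins that bind the pumps and lower their activity. Calsequestrins bind calcium inside the SR, while parvalbumin binds it in the cytosol of fast fibres and speeds relaxation.

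The reading frames of the micropeptides are shown because their small size is what sets these genes apart from the pumps, and because Mrln and Sln had the largest differences among the 10 genes. The sequences were read from the mm10 (GRCm38) genome with GENCODE M21 transcripts. Each frame lay in a single exon on the plus strand, at chr10:70219496-70219636 for Mrln, chr9:53853473-53853568 for Sln and chr10:53343864-53344022 for Pln. Start and stop codons are in capitals.
Mrln: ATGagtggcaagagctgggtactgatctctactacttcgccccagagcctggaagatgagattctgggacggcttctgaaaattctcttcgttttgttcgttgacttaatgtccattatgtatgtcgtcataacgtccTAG
Sln: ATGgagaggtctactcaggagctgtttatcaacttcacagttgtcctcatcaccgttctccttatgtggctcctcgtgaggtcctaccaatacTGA
Pln: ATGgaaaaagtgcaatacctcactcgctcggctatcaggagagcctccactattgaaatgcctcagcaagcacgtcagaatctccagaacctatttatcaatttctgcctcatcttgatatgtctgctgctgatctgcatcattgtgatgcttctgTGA
The frames held 46 codons in Mrln, 31 in Sln and 52 in Pln before the stop, against 994 in Atp2a1 and 998 or 1044 in the transcripts of Atp2a2. Merged exons spanned 1180 bases in Mrln, 1318 in Sln and 2759 in Pln, so the frame was the smaller part of the length counted for each gene. Where reads fell within a gene was not measured.

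Total counts ranged from 41400132 to 54226618 per library. Rbm20 was measured at 170, 165 and 164 CPM (counts scaled to a common library size by TMM) in the AAV-GFP replicates and at 499, 545 and 406 CPM in the AAV-RBM20 replicates, in replicate order. The log2 fold change of 1.54 ± 0.15 (SE) came with an edgeR adjusted p of 0.121, of 0.0107 once the replicate number was added as a block, and of 2.28e-06 without both libraries numbered 3. DESeq2, the tool of the study, gave Rbm20 an adjusted p of 4.42e-15 with no block. The main edgeR test thus did not call the gene that the vector carries, although its groups did not overlap. The replicate 3 libraries stood apart from the others in both groups. Ttn took 4.48% and 9.05% of their counts against 16.9% to 17.8% elsewhere, and mitochondrially encoded genes took 12.5% and 11.4% against 6.41% to 7.66%. Values without both of these libraries are given beside each gene of the 10. Of the 5 cardiac markers, Nppa, Tnni3, Myl7 and Ryr2 were under 1 CPM in every library and Myh6 was at 1.79 to 8.39 CPM, while fast-fibre markers summed to 47858 to 83543 CPM and slow-fibre markers to 37.6 to 134.5 CPM.

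The 10 genes took 3.14% to 4.14% of all counts in each library, nearly all of it from Atp2a1, Pvalb, Casq1 and Srl. Levels are compared between genes as CPM per kilobase of merged exon. These levels depend on the length used: merged exons of Mrln span 1180 bases, but Mrln-201, the transcript of the printed frame, has 443. On that transcript the level of Mrln would be higher. On this scale the mean of the 6 libraries was 8068 for Atp2a1, 5334 for Pvalb, 897 for Casq1, 312 for Srl, 185 for Hrc, 26.5 for Mrln, 14.8 for Casq2, 7.48 for Atp2a2, 0.779 for Sln and 0.494 for Pln. The fast-fibre pump and buffers thus led the order and the slow-fibre or cardiac partners closed it. Neighbours whose library ranges overlapped were Atp2a1 and Pvalb, Mrln and Casq2, Casq2 and Atp2a2, and Sln and Pln. At every other step the higher gene exceeded the next in 6 of 6 libraries.

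**Figure D1:**
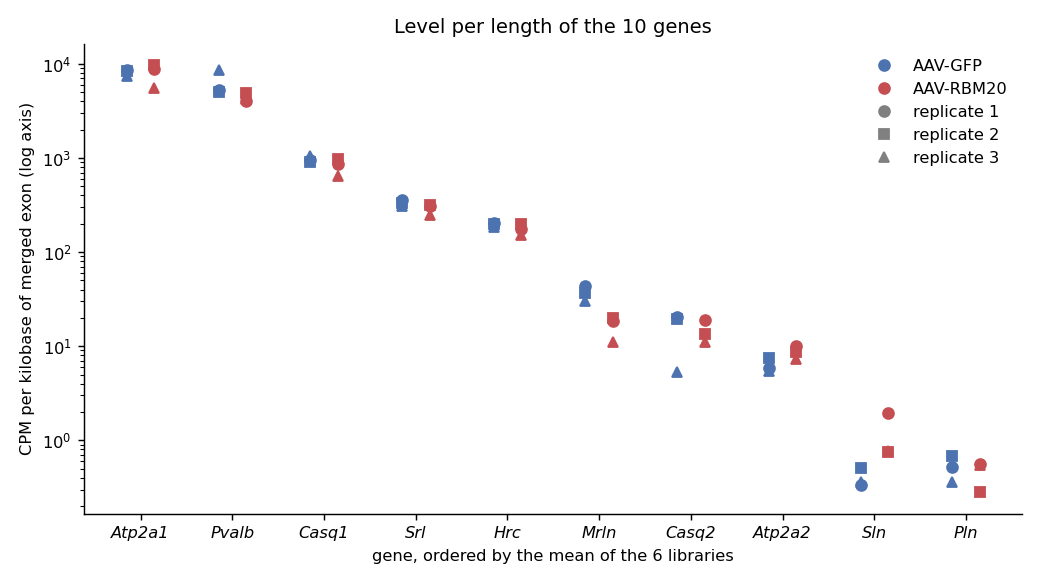
CPM per kilobase of merged exon, on a log axis, for each of the 10 genes in the 6 libraries (blue, AAV-GFP; red, AAV-RBM20; symbols, replicates). Atp2a1 has a mean of 8068 and Pln of 0.494, and the groups separate for Mrln and Sln in opposite directions, while Casq2 of AAV-GFP replicate 3 lies well under the other libraries.

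In the comparison of AAV-RBM20 with AAV-GFP, 0 of the 17222 genes (0%) passed an adjusted p of 0.05 by the quasi-likelihood test of edgeR. Adding the replicate number as a block let 25 (0.145%) pass. Rbm20 itself was not called without the block, so the absence of calls does not mean that no gene differed. At an unadjusted p under 0.05, 1360 genes (7.9%) were called, 702 higher (4.08%) and 658 lower (3.82%), a split that became 865 and 504 under upper quartile scaling. Ranges of CPM did not overlap for 2885 genes (16.8%), 1328 higher (7.71%) and 1557 lower (9.04%). Among the 10 genes, Sln and Atp2a2 were higher at an unadjusted p under 0.05. The ranges did not overlap for Sln, which was higher, nor for Mrln and Pvalb, which were lower. The median log2 fold change was -0.16 over the 10 genes, with 2 positive and 8 negative, beside 0.009 over all genes tested. In bulk muscle, fewer fibres of a type and less RNA per fibre cannot be told apart.

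**Figure D2:**
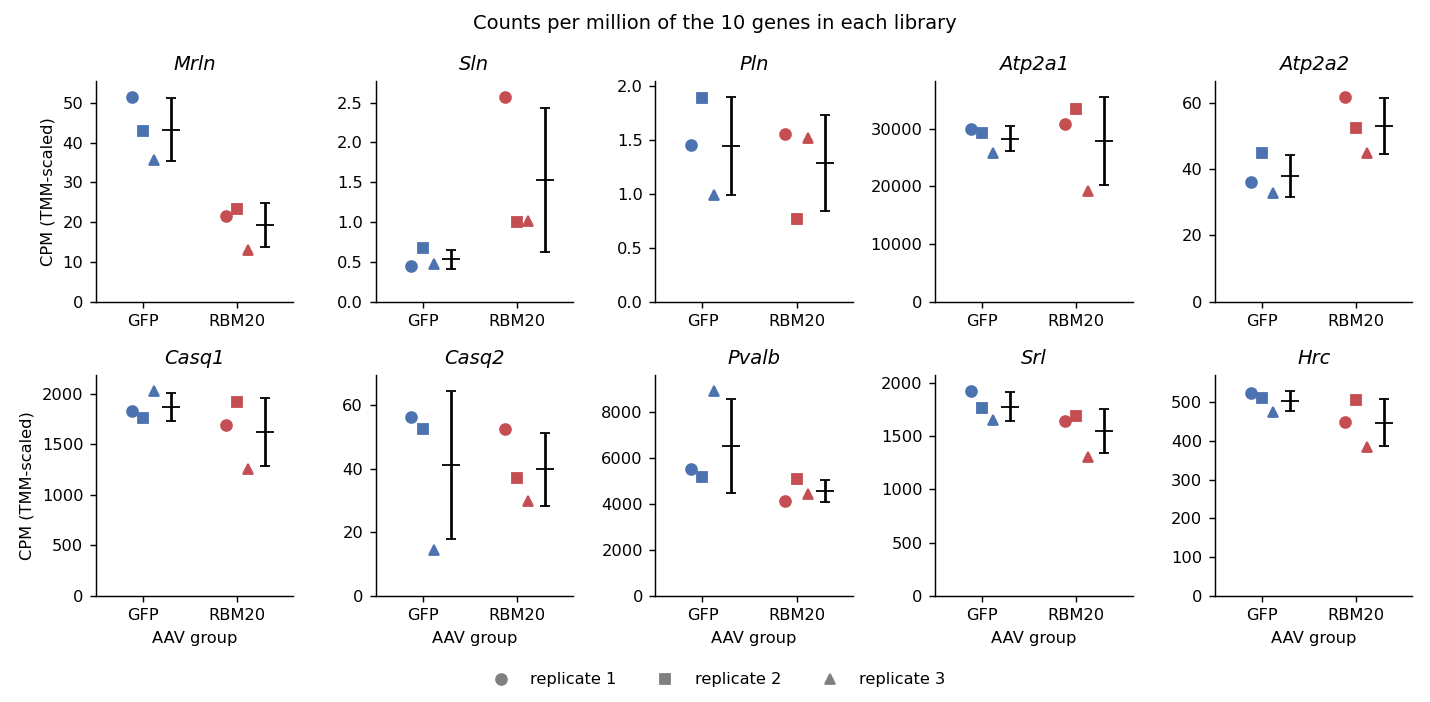
TMM-scaled CPM of each gene by library (blue, AAV-GFP; red, AAV-RBM20; symbols, replicates; black, mean ± SD, n = 3 per group; each panel has its own axis from 0). Mrln is lower and Sln higher in all 3 AAV-RBM20 libraries than in any AAV-GFP library, Pvalb is highest in AAV-GFP replicate 3, and the remaining panels overlap.

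Among the 3 micropeptides of the 10 genes, Mrln (chr10:70204664-70219711, plus strand) was the one with appreciable RNA. It had 2088, 1792 and 1868 counts in AAV-GFP replicates 1, 2 and 3 and 1181, 937 and 632 in AAV-RBM20 replicates 1, 2 and 3. Scaled, these were 51.4, 42.9 and 35.5 CPM against 21.6, 23.3 and 13.0 CPM. The lowest AAV-GFP library lay above the highest AAV-RBM20 library. Means were 43.3 ± 7.94 and 19.3 ± 5.53 CPM (SD, n = 3), which is 2.24-fold lower in AAV-RBM20, with a fitted log2 fold change of -1.16 ± 0.24 (SE). With the replicate block 25 genes (0.145%) passed in edgeR, 10 of them lower (0.0581%), and Mrln was noticed as one of these, so its difference is described only. Over 17 alternatives the Mrln log2 fold change ranged from -1.32 to -0.94, and it was -1.06 ± 0.09 (SE) without both replicate 3 libraries. These fits reuse the libraries in which Mrln was noticed, so their range is no separate evidence for the difference. Mrln overlaps no other annotated gene.

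Mrln was also compared with the RNA of its target, the pump, within each library, which does not depend on how libraries are scaled. Per 1000 units of Atp2a1 plus Atp2a2, all per length, Mrln stood at 5.07, 4.33 and 4.06 in AAV-GFP and at 2.07, 2.05 and 1.99 in AAV-RBM20. The mean ratio was 4.49 ± 0.520 against 2.04 ± 0.0413 (SD, n = 3), or 2.20-fold lower. The size of this ratio depends on the merged exon length used. The difference in mean log2 ratio between the groups was -1.13 per length and also -1.13 on raw counts. The 3 AAV-RBM20 libraries were nearly equal on this ratio although their Mrln CPM differed, since AAV-RBM20 replicate 3 was low for Mrln and Atp2a1 alike. This ratio uses the value that chose Mrln and carries no test.

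Sln (chr9:53850164-53854560, plus strand), best known from atria and slow or developing muscle, was near the bottom of the order of levels. Counts of 18, 28 and 25 were recorded in the AAV-GFP libraries and of 140, 40 and 49 in those of AAV-RBM20, equal to 0.443, 0.671 and 0.475 CPM against 2.57, 0.995 and 1.01 CPM. All 3 AAV-RBM20 libraries lay above the AAV-GFP libraries, with replicate 1 of AAV-RBM20 far above the other two. The exact 95% Poisson interval of its 140 counts, which covers counting error only, was 118 to 165, and that of the 28 counts of the highest AAV-GFP library was 18.6 to 40.5. Means of 0.530 ± 0.123 and 1.52 ± 0.903 CPM (SD, n = 3) differed 2.88-fold. The Sln log2 fold change was 1.53 ± 0.45 (SE, 95% interval 0.48 to 2.58), which did not pass (edgeR adjusted p = 0.618). The estimate for Sln was 0.92 when AAV-RBM20 replicate 1 was left out, without each other library it lay between 1.42 and 1.76, and it was 1.70 ± 0.49 without both replicate 3 libraries.

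Pln (chr10:53337667-53345987, plus strand), the micropeptide of heart and slow muscle, was detected at 59, 79 and 52 counts in AAV-GFP and at 85, 31 and 74 in AAV-RBM20. This gave 1.45, 1.89 and 0.988 CPM against 1.56, 0.771 and 1.52 CPM, and the groups overlapped throughout. The Pln log2 fold change was -0.16 ± 0.37 (SE, 95% interval -1.01 to 0.70, edgeR adjusted p = 0.912), so the interval reached from 0.495-fold to 1.62-fold. Without both replicate 3 libraries the estimate for Pln was -0.49 ± 0.35. Pln counts are uncertain, because 1644 exon bases lie opposite Gm47644 (5.81 to 10.1 CPM) and 141 opposite Cep85l, and the strand setting of the counting is not given in the sources used here.

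Summed per length, the 3 micropeptides consisted of Mrln to 98.1%, 96.8% and 97.7% in AAV-GFP and to 88.0%, 95.0% and 89.3% in AAV-RBM20. Mrln was the main micropeptide RNA in every library. Sln per 1000 pump units was 0.0391, 0.0606 and 0.0487 in AAV-GFP against 0.219, 0.0784 and 0.138 in AAV-RBM20, and Pln was 0.0612, 0.0816 and 0.0484 against 0.0636, 0.029 and 0.0996. The difference in Sln was small beside that in Mrln, and the 3 micropeptides together came to 4.60 ± 0.516 per 1000 pump units in AAV-GFP and 2.24 ± 0.0977 in AAV-RBM20 (SD, n = 3).

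**Figure D3:**
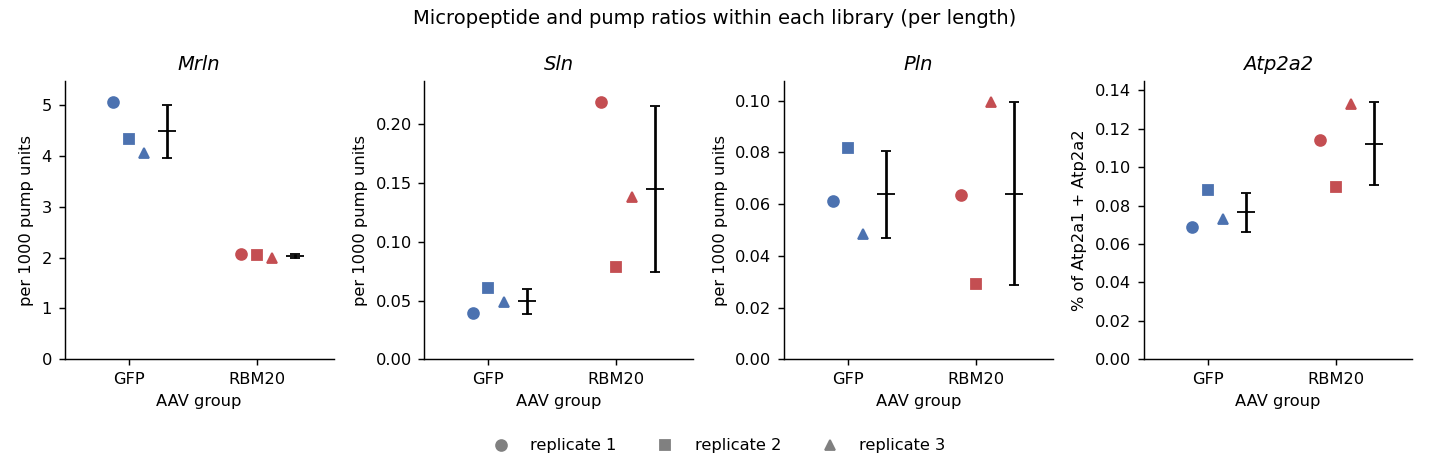
Ratios within each library of values per length (blue, AAV-GFP; red, AAV-RBM20; symbols, replicates; black, mean ± SD, n = 3), with Mrln, Sln and Pln per 1000 units of Atp2a1 plus Atp2a2, and Atp2a2 as a percentage of both pumps. Mrln has means of 4.49 and 2.04 with no overlap, Sln and Atp2a2 are higher in all 3 AAV-RBM20 libraries, and Pln overlaps.

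Of the pumps, Atp2a1 (chr7:126445858-126463108, minus strand) was the most abundant of the 10 genes. It was measured at 29847, 29199 and 25715 CPM in AAV-GFP and at 30821, 33475 and 19255 CPM in AAV-RBM20. AAV-RBM20 held both the highest and the lowest library, replicate 3 being the lowest in each group. The Atp2a1 log2 fold change was -0.02 ± 0.24 (SE, 95% interval -0.58 to 0.54, edgeR adjusted p = 0.985), and it was 0.13 ± 0.09 without both replicate 3 libraries. A stretch of 763 exon bases lies opposite Rabep2, which had 378 to 568 counts per library against 935105 to 1681379 for Atp2a1.

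Atp2a2 (chr5:122453513-122502225, minus strand) had 36.0, 45.04 and 32.8 CPM in AAV-GFP and 61.7, 52.5 and 44.8 CPM in AAV-RBM20. Each AAV-RBM20 library was above the AAV-GFP library of its number, but AAV-GFP replicate 2 and AAV-RBM20 replicate 3 were nearly equal. Means were 37.9 ± 6.35 and 53.0 ± 8.46 CPM (SD, n = 3), 1.40-fold apart. The Atp2a2 log2 fold change was 0.48 ± 0.17 (SE, 95% interval 0.08 to 0.88, edgeR adjusted p = 0.618). It passed only under DESeq2 with the replicate block (0.47, adjusted p = 0.0430), in which 505 genes passed in all, while adjusted p over its other alternatives was 0.111 or higher. Without both replicate 3 libraries the estimate for Atp2a2 was 0.50 ± 0.13. As a share of both pumps per length, Atp2a2 was 0.0689%, 0.0881% and 0.0729% in AAV-GFP against 0.114%, 0.0895% and 0.133% in AAV-RBM20, with no overlap between the groups.

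Slow-fibre markers other than these genes did not separate the groups. Their summed level was 105.8, 96.5 and 37.6 CPM in AAV-GFP and 134.5, 67.5 and 134.3 CPM in AAV-RBM20, with 8 of 9 log2 fold changes positive, 1 of 9 at an unadjusted p under 0.05, and none passing. Markers of immature or denervated fibres leaned the same way as Sln and Atp2a2. At an unadjusted p under 0.05, 4 of the 6 tested were higher and 1 lower, beside 4.08% and 3.82% of all genes tested. The 4 higher were Myh3, Myh8, Myog and Ncam1, whose ranges did not overlap. In AAV-RBM20, replicate 1 was far above replicates 2 and 3 for Myh3 (8.38 against 2.54 and 1.87 CPM) and Myh8 (10.4 against 3.98 and 3.81 CPM), as for Sln. It was not so for Myog and Ncam1. The sum of all markers on this list (54.0 to 59.7 against 52.3 to 75.0 CPM) overlapped, but its largest part was Myod1, the lower marker, with means of 39.7 and 31.7 CPM. None of these markers passed the adjusted p, and their part in the Sln and Atp2a2 values was not tested. Markers of smooth muscle, which also uses SERCA2, summed to 111 to 151 CPM in AAV-GFP and 115 to 148 CPM in AAV-RBM20, with 0 of 6 at an unadjusted p under 0.05.

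The main calsequestrin of fast fibres, Casq1 (chr1:172209894-172219868, minus strand), had 1836, 1759 and 2026 CPM in AAV-GFP and 1696, 1924 and 1261 CPM in AAV-RBM20. The groups overlapped and AAV-RBM20 replicate 3 was lowest. The Casq1 log2 fold change was -0.20 ± 0.19 (SE, 95% interval -0.63 to 0.23, edgeR adjusted p = 0.751), against 0.02 ± 0.08 without both replicate 3 libraries and -0.04 without AAV-RBM20 replicate 3 alone. Short stretches of exon lie opposite other genes in Casq1 (156 bases, Gm17224) and Atp2a2 (83 bases, Gm43361), both of which were under 1 CPM.

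Casq2 (chr3:102086415-102146514, plus strand), the calsequestrin of heart and slow fibres, was measured at 56.5, 52.6 and 14.5 CPM in AAV-GFP and at 52.5, 37.0 and 30.0 CPM in AAV-RBM20. AAV-GFP replicate 3, the library with the lowest slow-fibre marker sum, was also the lowest for Casq2, so the spread within AAV-GFP exceeded any difference between groups. The Casq2 log2 fold change of -0.05 ± 0.46 (SE, 95% interval -1.10 to 1.01, edgeR adjusted p = 0.981) changed sign with the replicate block (0.13) and was -0.27 without both replicate 3 libraries. Casq2 made up 2.15%, 2.09% and 0.508% of both calsequestrins per length in AAV-GFP against 2.16%, 1.35% and 1.67% in AAV-RBM20.

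Srl encodes sarcalumenin, a calcium-binding glycoprotein of the SR lumen, and Hrc a histidine-rich calcium-binding protein of the same compartment. Srl (chr16:4480216-4541816, minus strand) had 1921, 1764 and 1648 CPM in AAV-GFP and 1647, 1692 and 1308 CPM in AAV-RBM20. Hrc (chr7:45335290-45338974, plus strand) had 523, 511 and 474 CPM against 449, 506 and 386 CPM. Both were lower in AAV-RBM20 in each of the 3 same-numbered pairs, yet the ranges overlapped. Log2 fold changes were -0.20 ± 0.16 for Srl (edgeR adjusted p = 0.728) and -0.17 ± 0.15 for Hrc (0.741), with 95% intervals of -0.57 to 0.17 and -0.51 to 0.17. They were -0.13 ± 0.07 for Srl and -0.11 ± 0.07 for Hrc without both replicate 3 libraries, and -0.08 and -0.07 without AAV-RBM20 replicate 3 alone.

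Pvalb (chr15:78191114-78206400, minus strand), the parvalbumin of fast fibres, had 5544, 5174 and 8913 CPM in AAV-GFP and 4154, 5100 and 4429 CPM in AAV-RBM20. The groups did not overlap, but the gap between 5174 and 5100 CPM was small and AAV-GFP replicate 3 was far above all others. Means were 6544 ± 2061 and 4561 ± 487 CPM (SD, n = 3), 1.43-fold lower in AAV-RBM20. The Pvalb log2 fold change was -0.52 ± 0.24 (SE, 95% interval -1.07 to 0.03, edgeR adjusted p = 0.641) and was -0.20 ± 0.10 without both replicate 3 libraries. Per Casq1, a fast-fibre SR protein, Pvalb overlapped between the groups at 6.47 ± 1.54 and 5.38 ± 1.06 (SD, n = 3).

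The summed fast-fibre markers were lower in AAV-RBM20 with no overlap, as Mrln and Pvalb were. Their summed level was 76531 to 83543 CPM in AAV-GFP and 47858 to 69621 CPM in AAV-RBM20. The median log2 fold change was -0.49 over the 10 markers, beside 0.009 over all genes tested. Of the 10, 4 were lower at an unadjusted p under 0.05, beside 3.82% of all genes tested, and 0 passed the adjusted p. Ranges were apart for 5 of them, all lower, beside 9.04% of all genes tested. The fall was not uniform, with 8 log2 fold changes negative and 2 positive, Myh1 at 0.42 and Myh2 at 0.76. Myh4, the largest part of the sum, averaged 36646 CPM in AAV-GFP and 24805 CPM in AAV-RBM20. The ranges of these 3 myosin genes overlapped. Macrophage markers (33.7 to 111 against 73.3 to 174 CPM) and fibroblast markers (493 to 1049 against 853 to 1088 CPM) ran higher with overlapping ranges, and endothelial, adipocyte and erythroid marker sums overlapped too. The part of these shifts in the values of the 10 genes was not tested.

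**Figure D4:**
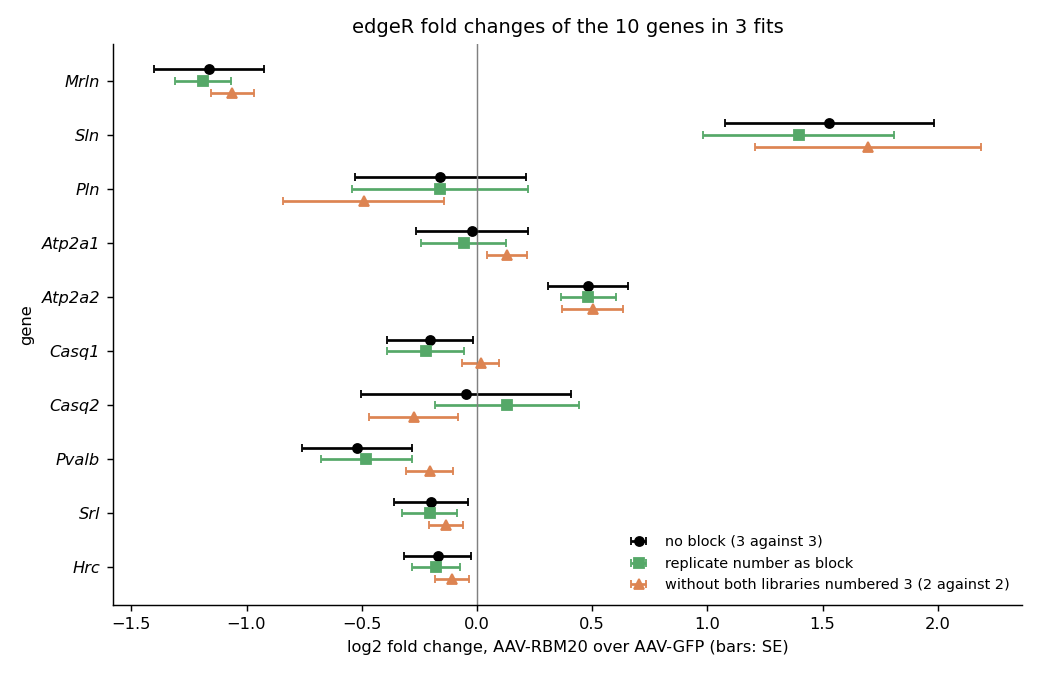
Log2 fold change of AAV-RBM20 over AAV-GFP from edgeR for the 10 genes (points, estimate; bars, SE) in the fit of 3 against 3 libraries, with a block for the replicate number, and without both replicate 3 libraries. Mrln stays between -1.19 and -1.06 and Atp2a2 between 0.48 and 0.50, whereas Casq1, Pvalb and Pln move with the replicate 3 libraries.

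The wider calcium machinery was read from lists of genes grouped by function. Of 81 genes listed, 74 were tested and 0 passed the adjusted p. At an unadjusted p under 0.05, 1 was higher and 7 were lower (10.8%, beside 7.9% of all genes tested), and 55 of the 74 log2 fold changes were negative, with a median of -0.10 that was -0.024 without both replicate 3 libraries and -0.058 under upper quartile scaling. Ranges were apart for 1 higher and 16 lower genes of the 74, beside 7.71% and 9.04% of all genes tested. With both replicate 3 libraries left out, 9 of the 74 passed (12.2%, beside 4% of all genes in that fit), 2 higher and 7 lower, and 9 of 79 (11.4%, all lower, beside 1.7% of all genes) passed in DESeq2 with the replicate block, 7 genes being shared between the 2 sets.

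Release genes encode the channels and junction proteins that let calcium out of the SR. Their median log2 fold change was -0.30 over 16 tested genes, 14 of them negative. Of the 16, 3 (18.8%) had an unadjusted p under 0.05, beside 7.9% of all genes tested. This median comes from all 6 libraries and was not taken without both replicate 3 libraries. The median of all calcium lists together moved from -0.10 to -0.024 when those were left out. Jph1, a junctophilin that tethers the SR to the surface membrane, had 630, 620 and 730 CPM in AAV-GFP and 474, 503 and 501 CPM in AAV-RBM20, with a log2 fold change of -0.42 ± 0.13 (SE, edgeR adjusted p = 0.618). Jsrp1, a junctional SR protein, was at -0.44 ± 0.15. Ryr1, the release channel itself, and Cacna2d1, a subunit of the voltage sensor, were at 0.07 and 0.007. Jph1 and Jsrp1 are among the 7 genes that passed in both alternatives, as are Cacna1s, Calm3, Camk2a and Slc8a1.

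The other pump and micropeptide genes gave little signal. Atp2a3, the SERCA of non-muscle cells, had a log2 fold change of 0.10, and 1810037I17Rik, a reading frame of 65 codons that encodes another-regulin, was at -0.38. Strit1, whose product DWORF relieves the pumps from inhibition and which the annotation names Gm34302, had 0 counts in 5 libraries, each of which allows up to 3.69 counts (exact 95% Poisson bound), and 1 in AAV-RBM20 replicate 3, too few to be tested. Smim6, the gene of endoregulin, had 0 to 3 counts and was not tested either.

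Among the other calcium-binding proteins, Calm3, which encodes the calcium sensor calmodulin, was at -0.71 ± 0.22 (SE, edgeR adjusted p = 0.618). Sri and Rcn1 were at 0.10 and 0.12. In surface entry and extrusion, the SR calcium sensor Stim2 was at -0.46 ± 0.14 and the sodium-calcium exchanger Slc8a1 at -0.44. Slc8b1, the mitochondrial exchanger, was at 0.37 ± 0.14. The channel gene Orai2, with only 1.03 to 3.19 CPM, was at 0.66 ± 0.37. Of the signalling genes, the kinase gene Camk2a was at -0.45 ± 0.18 and the calcineurin subunit gene Ppp3cb at -0.32, with Nfatc2 at 0.29 and Rcan2 at 0.19. Of the 11 mitochondrial uptake genes, 8 log2 fold changes were negative and 3 positive, with a median of -0.056. They ran from Smdt1 at -0.37 and Micu3 at -0.28 to Mcub, an inhibitory channel subunit, at 0.61 ± 0.40 (SE). Mcub was low in every library, at 0.32 to 0.99 CPM.

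**Figure D5:**
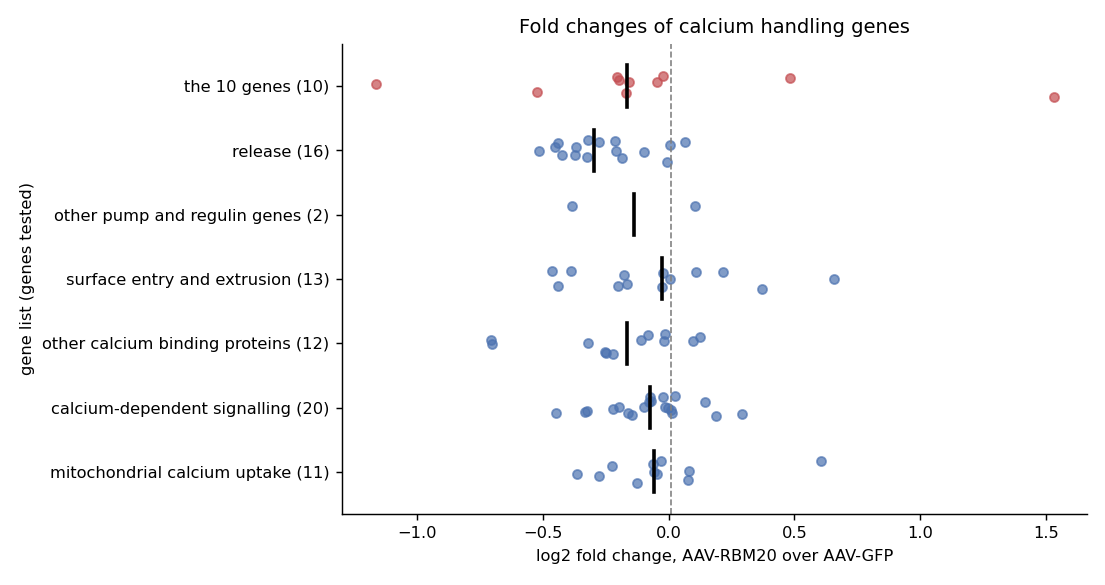
Log2 fold change of AAV-RBM20 over AAV-GFP for each tested gene of the 10 genes and of 6 calcium lists (points; height within a row is jitter), with the list median as a black bar and the median of all genes tested, 0.009, as a dashed line. Mrln and Sln lie outside the span of every other gene drawn, and the release list is centred at -0.30 with the replicate 3 libraries included.

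The genes whose log2 CPM over the 6 libraries followed Mrln most closely, among 11555 genes whose log2 CPM averaged 1 or more, were Mrgprh (Pearson r = 0.997), Eepd1 (0.996), Atpaf1 (0.996), Rbm38 (0.994) and Ttll7 (0.992). These are the extremes of many genes over 6 libraries that share depth and group, and are given as a description. They differed in size of change, from a log2 fold change of -0.21 for Atpaf1 to -1.15 for Ttll7, the value nearest to that of Mrln. Of the 10 genes, Sln and Pln fell under this level cut and were not compared with Mrln. Among the rest, Srl (r = 0.903) and Hrc (r = 0.869) were closest to Mrln, and Atp2a2 ran the opposite way (r = -0.532).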

How the data were processed

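Ribosomal RNA-depleted RNA from 6 TA samples was sequenced with a stranded kit. Per the labels and the study's methods, the authors used HISAT2 for alignment to mm10 and HTSeq for counts per Ensembl gene. Versions, annotation release and strand setting are not given in the sources used here. The deposited counts are raw whole numbers. A second deposited table holds a signal, the counts divided by 1 DESeq2 size factor per library, and served only to check fold changes. Symbols and positions came from GENCODE M21 (GRCm38).

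Groups came from the labels, which do not say whether samples are separate animals, so p-values measure only the spread between samples. Counts were tested with edgeR 4.0.16 (robust glmQLFit, glmQLFTest, R 4.3.3) after filterByExpr and TMM scaling, with no covariate, Benjamini-Hochberg adjustment over 17222 genes and a threshold of 0.05. The scripts were tested on simulated counts. Alternatives used DESeq2 1.42.0, limma-voom (limma 3.58.1), other scalings, filters and offsets, a replicate block, and left out libraries. The 10 genes and all lists were chosen with earlier results of these data known. Text names all 10, Rbm20, up to 2 genes per direction and calcium list by smallest p, and the 5 genes most correlated with Mrln (mean log2 CPM of at least 1, prior count of 2). Cacna1s was named after its values were seen. Some genes that this rule takes are not reported here.

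Replicate numbers are shared in the titles only. Each library's log2 CPM deviations from its group mean correlated at 0.418, 0.201 and 0.484 for same-numbered libraries. All were above the minimum of 0.1, which meets the rule set for pairing. The other pairs ran from -0.422 to 0.216. The 0.216 was between AAV-GFP replicate 2 and AAV-RBM20 replicate 1 and exceeded the 0.201 of the replicate 2 pair. The rule thus does not single out same-numbered libraries. The tests reported are still those without the block, and the blocked fit is an alternative, given where it changes a call. Tests without the block take no account of this pairing. The study's blot lane list has some mice with both GFP (marked R) and RBM20 (marked L). Whether the sequenced samples were paired in that way is not stated. With the replicate block, 25 genes passed in edgeR.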

Additional observations from a re-analysis of the deposited data

How the results depend on the processing

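The number of genes past the adjusted p was 0 in edgeR, 8 without the low-count filter, 25 with the replicate block, 71 in DESeq2, 505 in DESeq2 with the replicate block and 690 without both replicate 3 libraries, and 0 under every other alternative, including limma-voom and each left-out library. Of the 9 genes tested besides Mrln, 1 (Atp2a2) passed in DESeq2 with the replicate block and 0 elsewhere. Calcium genes numbered 9 without both replicate 3 libraries, 9 in DESeq2 with the replicate block and 0 elsewhere. The edgeR block changed no call among the 9 genes tested besides Mrln. Why these counts differ was not tested.

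Signs turned in 16 of 169 values of single genes, none past the threshold. Atp2a1 turned to 0.020 under upper quartile scaling, 0.0033 under a CPM filter and 0.13 without both replicate 3 libraries, and ranged from -0.18 to 0.19 over left-out libraries. Casq1 turned to 0.017 without both replicate 3 libraries. Casq2 turned to 0.13 with the replicate block, 0.12 in DESeq2 with it and 0.14 in limma-voom, and ranged from -0.45 to 0.25 over left-out libraries, and Pln from -0.37 to 0.094. Ranges over left-out libraries were 0.92 to 1.76 for Sln, 0.36 to 0.62 for Atp2a2, -0.67 to -0.23 for Pvalb, -0.34 to -0.04 for Casq1, -0.27 to -0.08 for Srl and -0.27 to -0.07 for Hrc. The difference in mean log2 ratio of Casq2 to both calsequestrins was 0.37, turned to -0.31 without both replicate 3 libraries and ranged from -0.32 to 0.72 over left-out libraries, and that of Pln to the pumps was -0.13, became -0.72 without both replicate 3 libraries and ranged from -0.54 to 0.35. Sln could not be fitted under the CPM filter, which removed it. With 3 samples a group and under 150 Sln or Pln counts per library, intervals for these genes stay wide.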
